A study of Mus musculus with 3 samples.

Results

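Integrin, laminin and collagen genes, with fibronectin, the nidogens and perlecan, were examined in mouse thymocytes, which are T cells still developing in the thymus. The members were every gene whose symbol begins as an integrin chain (Itga or Itgb), a laminin chain or a collagen chain, plus Fn1, Nid1, Nid2 and Hspg2, each represented by its probe set with the highest mean over the arrays. This gave 89 of 19938 named genes: 31 integrin symbols, 10 laminins, 44 collagens and 4 other matrix genes. Of the 31 integrin symbols, 27 are integrin chains. The other 4 (Itgb1bp1, Itgb1bp2, Itgb3bp and Itgbl1) are not, and are described apart.

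RNA was measured on 3 Affymetrix whole-transcript arrays, 1 per genotype. The mice were wild type aged 12 weeks, β-catenin transgenic aged 16 weeks and TCF-1-/- (labelled TCF-1-deficient) aged 8 weeks. The transgene's promoter, the strain and the number of animals per array were not given in the sources used here, and the labels mention no sort or gate. The study asked which genes are targets of β-catenin acting with TCF-1, a Wnt pathway transcription factor, and looked for genes that were lower in its absence and higher in transgenic thymocytes.

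With 1 array per genotype there is no replicate error, no test and no p-value, so the precision of each value below is limited by the number of arrays. Levels are the deposited values, taken as log2. Differences are 1 array minus another on that scale, and a gene is called higher or lower once that difference reaches 1, which is 2-fold. Levels are compared between arrays for the same gene, not between genes. A gene is said to reach the median level if on any array it is at or above 6.90, the median of the mean levels over named genes.

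Facts about the arrays as a whole bear on all of these values. Age differs with genotype, and Xist, the RNA of the inactive X chromosome, was at 12.49 in wild type, 4.86 in transgenic and 12.17 in TCF-1-deficient thymocytes. Genotype and age therefore cannot be told apart in any comparison, and in comparisons with the transgenic array neither can sex. Of 9 measured markers of αβ thymocytes, all reached the median level. Without TCF-1, 4 of them (Cd4, Cd8a, Cd8b1 and Rag1) were lower than in wild type by 2-fold or more and 1, Ptcra, was higher; the summed log2 level of the 9 was 112.0, 111.8 and 104.4 in wild type, transgenic and TCF-1-deficient thymocytes. In bulk samples such as these, fewer cells of a type and less RNA per cell cannot be told apart. Of all 35556 probe sets, 28.8% are identical across the 3 arrays in every printed digit. At 1 probe set per gene, so are 33.6% of all named genes and 30 of the 89 members (33.7%).

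Integrins are cell surface receptors made of 1 α and 1 β chain, which bind matrix proteins or adhesion molecules of other cells and link them to the cytoskeleton. In the thymus they hold developing T cells to epithelium and to matrix as the cells move between cortex and medulla. Laminins are trimers of an α, a β and a γ chain and, with type IV collagen, nidogens and perlecan, make up basement membranes. Fibronectin and the fibrillar collagens belong to the interstitial matrix.

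Most members differed little between the arrays, and a few differed strongly. Against wild type, TCF-1-deficient thymocytes had higher levels of Itga9, Itgae, Lamb1 and Lamb2 and lower levels of Itga5 and Lamc1, each by 2-fold or more. The other 83 members were within 2-fold. Among the 31 integrins 2 were higher and 1 was lower, and among the 58 matrix genes 2 were higher and 1 was lower. Over all named genes 1.33% were higher and 2.62% were lower at that threshold. In transgenic thymocytes the 1 member beyond 2-fold was Lamc1, which was higher, where 0.15% of all named genes were higher and 0.0953% were lower. No integrin was beyond 2-fold there. The median difference over the 89 members was 0.02 for TCF-1-deficient minus wild type and 0 for transgenic minus wild type, and over all named genes it was 0 in both.

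**Figure D1:**
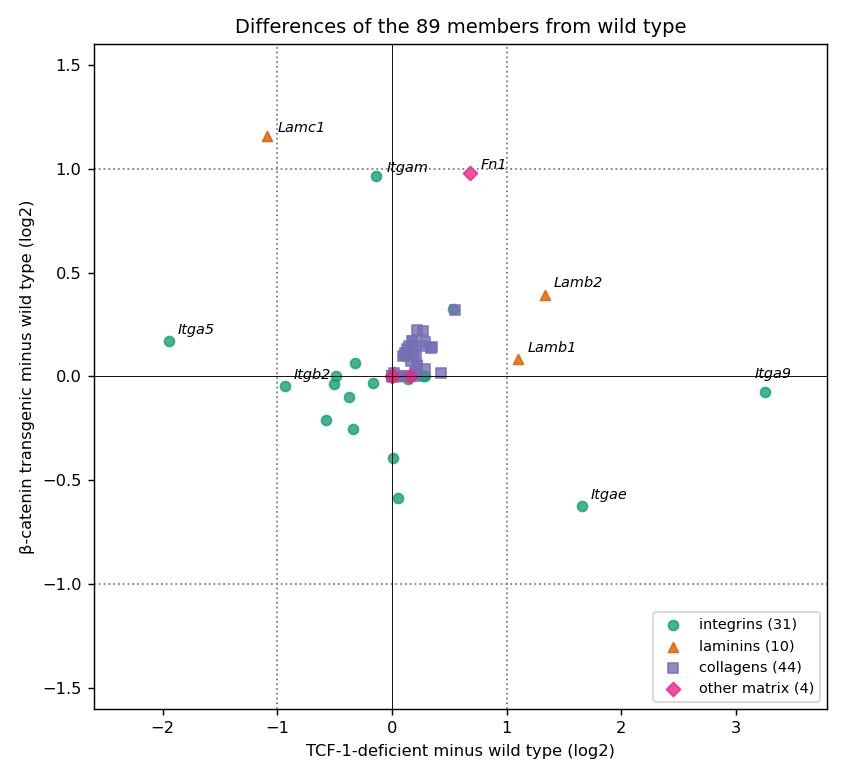
Difference of each of the 89 members from wild type in TCF-1-deficient thymocytes (horizontal axis) and in transgenic thymocytes (vertical axis), in log2 units, with dotted lines at 2-fold. Lamc1 is the member in the upper left corner beyond both lines (-1.09 and 1.16), Itga9 lies far to the right (3.26), and most collagens lie close to the origin on its upper right side.

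Lamc1 encodes the laminin γ1 chain, which most laminin trimers contain. Its level was 8.02 in wild type, 9.17 in transgenic and 6.93 in TCF-1-deficient thymocytes. It was thus 2.23-fold higher with the transgene (difference 1.16) and 2.13-fold lower without TCF-1 (difference -1.09). It was the 1 member of 89 that met the pattern the study looked for, which 6 of all named genes (0.0301%) met. The call without TCF-1 is narrow. With each array centred on its median over all probe sets, a step that moves the median of all named genes by 0.13, the difference was -0.96 and no member met the pattern. The direct difference between transgenic and TCF-1-deficient was 2.25 (4.74-fold), and it uses the same arrays as the other comparisons.

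In TCF-1-deficient thymocytes 2 laminin β chains differed in the opposite direction to Lamc1. Lamb1, the β1 chain, was at 6.20 in wild type, 6.28 in transgenic and 7.30 in TCF-1-deficient thymocytes, a difference from wild type of 1.10 (2.15-fold) without TCF-1. Lamb2, the β2 chain found in synaptic and vascular basement membranes, was at 6.68, 7.07 and 8.01 in the same order, a difference of 1.33 (2.52-fold). Both β chains were below the median level of 6.90 in wild type, so the sizes of these differences are uncertain. Lamb3, the β3 chain of epithelial laminin, had the same value (6.75) on all 3 arrays.

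The laminin α chains were nearly level across the arrays. Across Lama1, Lama2, Lama3, Lama4 and Lama5 the largest difference from wild type was 0.08, in Lama5 without TCF-1, and 3 of the 5 were identical on all arrays. None of the 5 reached the median level on any array. The second γ chain measured, Lamc3, stood at 6.81 in wild type and at 6.83 in both mutants. Among the 10 laminins the differences beyond 2-fold thus concerned the 3 chains Lamc1, Lamb1 and Lamb2, with α chain differences of at most 0.08.

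Fibronectin, encoded by Fn1, is the ligand of the integrin α5β1. It was at 5.95 in wild type, 6.92 in transgenic and 6.63 in TCF-1-deficient thymocytes. Wild type was the lowest, with differences of 0.98 for the transgenic (1.97-fold) and 0.68 for the TCF-1-deficient array (1.61-fold), both under the 2-fold rule. Centring the arrays on their medians takes the transgenic difference to 1.06, past the rule. Fn1 was below the median level in wild type and without TCF-1. Perlecan (Hspg2), a heparan sulfate proteoglycan of basement membranes, had the same value of 7.15 on all arrays, as did nidogen 2 (Nid2) at 6.18. Nidogen 1 (Nid1), which bridges laminin and type IV collagen, was at 6.10, 6.10 and 6.25.

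**Figure D2:**
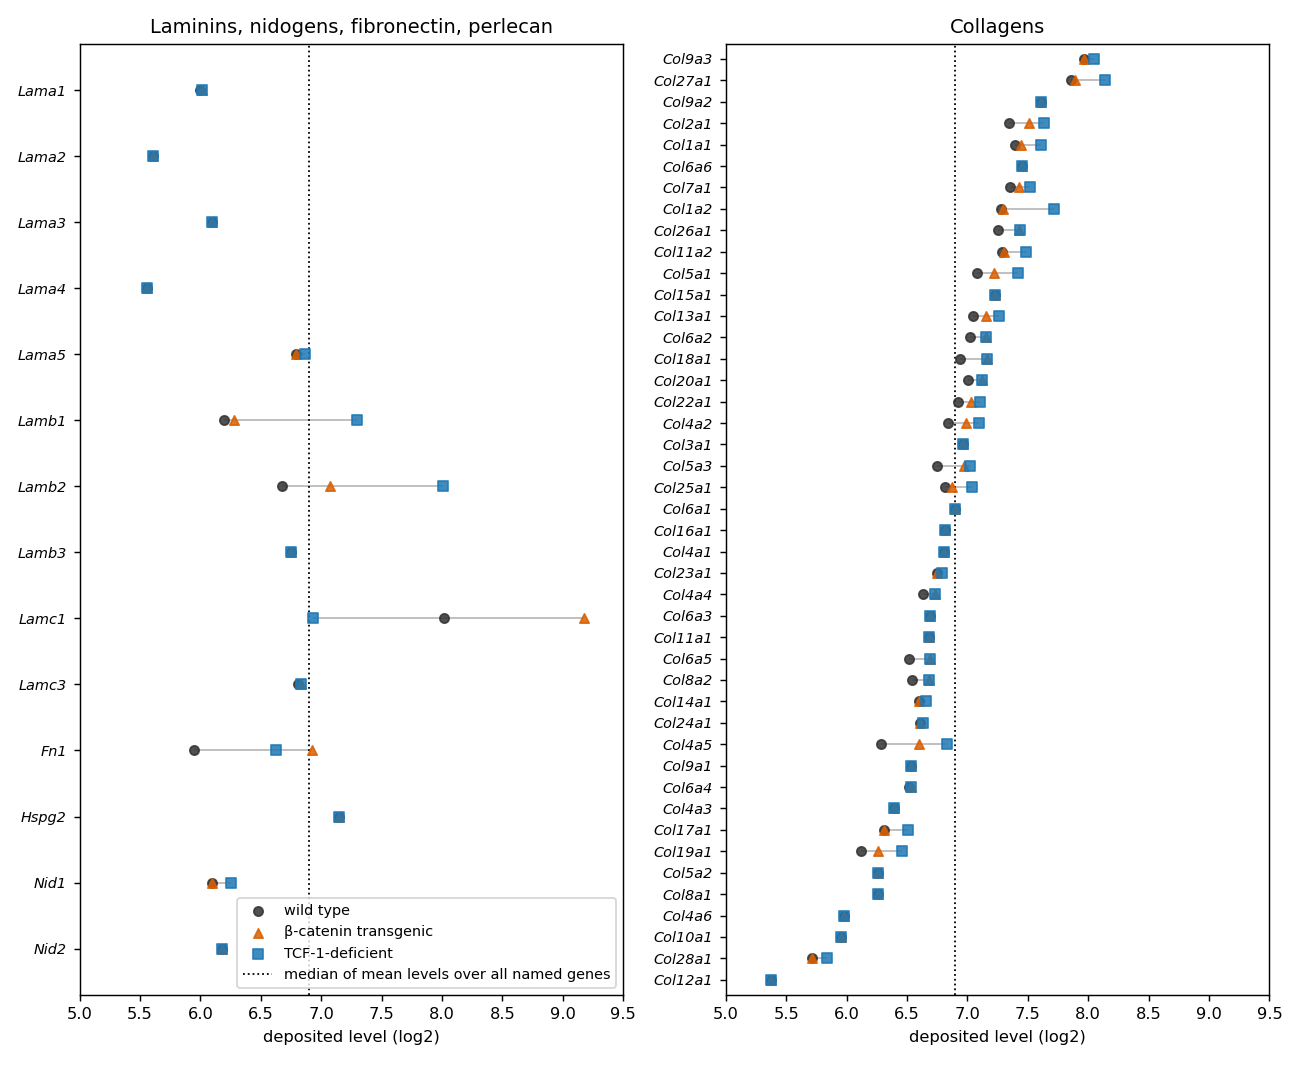
Deposited log2 level (horizontal axis) of the laminins, fibronectin, perlecan and nidogens (left) and of the collagens (right) on the 3 arrays, 1 point per array, with a dotted line at the median level over named genes. Lamc1, Lamb1, Lamb2 and Fn1 are spread out, while the points of the collagens nearly coincide.

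Among the integrins, Itga9 had the largest difference of all 89 members. It encodes the α9 chain, which pairs with β1 and binds tenascin, osteopontin and VCAM-1. Its level was 6.56 in wild type, 6.49 in transgenic and 9.82 in TCF-1-deficient thymocytes, so it was high in the last alone. The difference from wild type was 3.26, or 9.56-fold. The wild type and transgenic values were below the median level, which leaves the size of the fold uncertain. Its partner Itgb1, the β1 chain shared by many integrins, had the same value in wild type and transgenic thymocytes and was at 10.27 without TCF-1, a difference of 0.27.

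Itga5 encodes the α5 chain of the fibronectin receptor α5β1. It was at 8.33 in wild type, 8.50 in transgenic and 6.38 in TCF-1-deficient thymocytes, where it was below the median level. The difference without TCF-1 was -1.95, or 3.86-fold lower, and with the transgene it was 0.17. Without TCF-1 the levels of the 2 β1-pairing chains Itga9 and Itga5 thus lay on opposite sides of wild type, while Itgb1 was within 2-fold.

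Itgae encodes αE, known as CD103, which pairs with β7 and binds E-cadherin on epithelium. It was at 7.67 in wild type, 7.04 in transgenic and 9.33 in TCF-1-deficient thymocytes. The order was thus transgenic lowest and TCF-1-deficient highest, with differences from wild type of -0.63 and 1.66 (3.15-fold). Its β chain, Itgb7, was at 7.86, 7.46 and 7.87, a difference of 0.01 without TCF-1 and -0.39 with the transgene. The α chain was thus past the 2-fold rule without TCF-1 and the β chain was not. Cdh1, which encodes the ligand E-cadherin, was at 6.83, 6.67 and 7.77, a difference of 0.94 without TCF-1 that is under the 2-fold rule.

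Of 7 marker genes of γδ and innate-like T cells, 4 (Blk, Cd160, Gzma and Sox13) were higher without TCF-1 by 2-fold or more and 1, Klrb1c, was lower, with a difference of -1.06. Il2rb had a difference of -0.15, and Zbtb16 was identical on the 3 arrays. Their summed log2 level was 51.2 in wild type, 50.1 in transgenic and 59.7 in TCF-1-deficient thymocytes. Their part in the levels of Itgae and Itga9 was not tested. Of 5 B lymphocyte markers 2 were higher without TCF-1 (Cd79a and Ms4a1), with summed levels of 35.6, 37.0 and 41.9. Cd22 (0.96), Pax5 (0.75) and Cd79b (0.45) were also above wild type there, by less than 2-fold. Of 6 dendritic cell markers 1 was higher, H2-Aa, with summed levels of 40.1, 40.6 and 41.7, and Zbtb46 was above wild type by 0.50 without TCF-1 and by 0.26 with the transgene. Clec9a, Xcr1 and Siglech were identical on the 3 arrays, and Flt3 differed by 0.01.

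The integrin chains Itgal, Itgb2, Itga4, Itga6, Itgb4 and Itgav were within 2-fold in both comparisons with wild type. Itgal and Itgb2 form LFA-1, the receptor for ICAM adhesion molecules. Itgal was at 11.29 in wild type, 11.26 in transgenic and 11.12 in TCF-1-deficient thymocytes. Itgb2 was at 11.16, 11.12 and 10.23, a difference of -0.93 without TCF-1 (1.91-fold lower). The difference of its partner Itgal was -0.17. Itga4, which pairs with β1 or β7 and binds VCAM-1, fibronectin and MAdCAM-1, was at 10.81, 10.87 and 10.49. Itga6, the laminin-binding α6 chain, was at 9.69, 9.48 and 9.11, a difference of -0.58 without TCF-1. Its β4 partner Itgb4 was at 7.19, 7.19 and 7.48. Itgav, the αV chain of RGD-binding integrins, was at 8.98, 8.98 and 8.50.

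**Figure D3:**
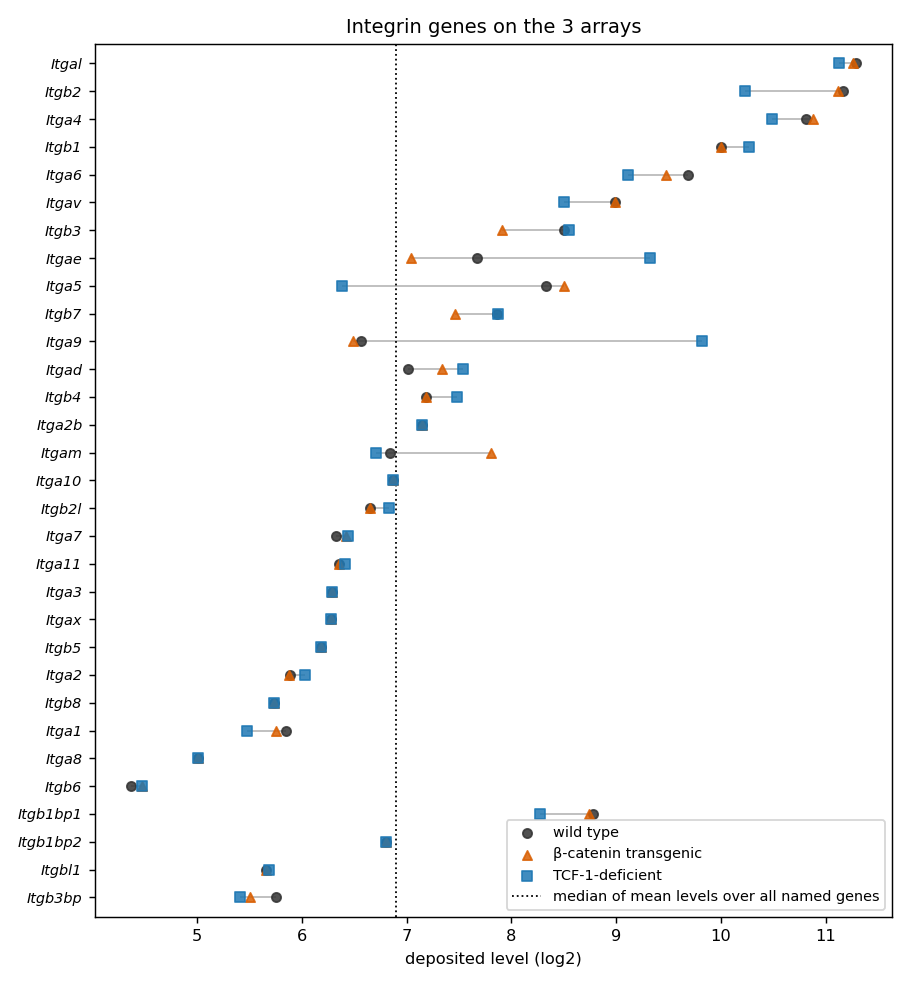
Deposited log2 level (horizontal axis) of the 27 integrin chains, sorted by mean level, and of the 4 symbols that are no chains (bottom), on the 3 arrays, 1 point per array, with a dotted line at the median level over named genes. The TCF-1-deficient point is far right of the others for Itga9 and Itgae and far left for Itga5, and the transgenic point is far right for Itgam.

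The integrin gene with the largest difference in transgenic thymocytes was Itgam. It encodes αM, known as CD11b, a chain of myeloid cells that pairs with β2. It was at 6.84 in wild type, 7.81 in transgenic and 6.70 in TCF-1-deficient thymocytes, so it was in the transgenic array alone that it reached the median level. The difference from wild type was 0.96 (1.95-fold), which is under the rule and passes it at 1.04 once arrays are centred on their medians. The difference from the TCF-1-deficient array was 1.10. The summed level of 8 myeloid markers was 49.6, 51.0 and 53.8 in the order wild type, transgenic and TCF-1-deficient, and with the transgene 0 of 8 were beyond 2-fold. On the transgenic array Cd14 (0.48), Lyz2 (0.39), Cybb (0.39), Csf3r (0.08) and S100a8 (0.04) were above wild type, and Adgre1, Csf1r and Fcgr3 were identical to it. Without TCF-1, Cybb (1.55) and Lyz2 (1.12) were higher by 2-fold or more and none of the 8 was lower by any amount. Of neutrophil markers outside that list, Ngp (-0.40) and Ltf (-0.04) were below wild type with the transgene, and Camp and S100a9 were identical. The part of myeloid cells, neutrophils included, in the Itgam value was not tested. In addition, 3 probe sets are annotated to both Rpl35 and Itgam and were not used. Itgax (CD11c) neighbours Itgam in the RefSeq gene order, and Itgad (CD11d) neighbours Itgax. Itgax had the same value of 6.27 on all arrays, and Itgad was at 7.01, 7.33 and 7.54. Itgad has more than 1 probe set, and its difference without TCF-1 of 0.53 became 0.26 when they were averaged.

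Itgb3, the β3 chain that pairs with αV and with the platelet chain αIIb, was lowest in transgenic thymocytes. Its levels were 8.50 in wild type, 7.91 in transgenic and 8.55 in TCF-1-deficient thymocytes, a difference of -0.58 with the transgene. Itga2b, which encodes αIIb, had the same value of 7.14 on all arrays. All 4 measured platelet markers (Pf4, Ppbp, Gp5 and Gp9) were identical across the arrays too, with a summed level of 23.9 on each.

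The other integrin chains were dim. Of the 27 chains, 12 did not reach the median level on any array: Itga1, Itga2, Itga3, Itga7, Itga8, Itga10, Itga11, Itgax, Itgb2l, Itgb5, Itgb6 and Itgb8. Among these, the collagen-binding chain Itga1 had the largest difference, -0.37 without TCF-1, and Itga3, Itga8, Itga10, Itgax, Itgb5 and Itgb8 had identical values on the 3 arrays. Of the 4 symbols that are not chains, Itgb1bp1, a protein that binds the β1 tail, was at 8.78, 8.74 and 8.27, and Itgb3bp, a centromere protein, was at 5.76, 5.51 and 5.41. Itgb1bp2 was identical across the arrays, and Itgbl1 differed by 0.03.

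Between the transgenic and TCF-1-deficient arrays, 4 integrins and 2 matrix genes were beyond 2-fold. Itga5 (2.12), Itgam (1.10) and Lamc1 (2.25) were higher on the transgenic array, and Itga9 (-3.33), Itgae (-2.28) and Lamb1 (-1.02) were lower. Over all named genes 2.45% were higher and 1.57% were lower in this comparison. Lamb1 sits at the threshold, with -0.98 after an intensity trend was removed.

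Promoter sequence was available for 64 of the 89 members, from RefSeq (GRCm38.p6), and the 250 bases before the annotated start were used. The windows of Itga9, Itga5, Lamb1 and Lamb2 are shown because these genes were beyond 2-fold without TCF-1. Lamc1 and Itgae were not matched. Capitals mark matches to the letters CTTTGAA or CTTTGAT (TCF/LEF), TGTGGT (RUNX) or TGGGAA (RBPJ, the factor of Notch signalling) on either strand. No searched motif overlapped another in these windows.
Itga9 (chr9:118711442-118711691, plus strand): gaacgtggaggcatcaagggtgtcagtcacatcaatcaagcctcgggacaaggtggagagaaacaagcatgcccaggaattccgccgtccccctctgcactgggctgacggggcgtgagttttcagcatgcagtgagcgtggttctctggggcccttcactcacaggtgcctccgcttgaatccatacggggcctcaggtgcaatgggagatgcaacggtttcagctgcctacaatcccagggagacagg
Itga5 (chr15:103366792-103367041, minus strand): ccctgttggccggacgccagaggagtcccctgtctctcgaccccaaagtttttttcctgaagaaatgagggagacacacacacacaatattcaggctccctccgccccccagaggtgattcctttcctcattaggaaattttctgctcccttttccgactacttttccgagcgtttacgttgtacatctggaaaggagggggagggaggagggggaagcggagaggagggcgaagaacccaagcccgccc
Lamb1 (chr12:31265043-31265292, plus strand): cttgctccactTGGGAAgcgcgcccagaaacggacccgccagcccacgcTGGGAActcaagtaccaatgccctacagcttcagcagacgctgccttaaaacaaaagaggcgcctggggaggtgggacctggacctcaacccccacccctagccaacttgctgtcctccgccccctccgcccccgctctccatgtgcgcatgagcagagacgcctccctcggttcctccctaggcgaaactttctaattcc
Lamb2 (chr9:108479612-108479861, plus strand): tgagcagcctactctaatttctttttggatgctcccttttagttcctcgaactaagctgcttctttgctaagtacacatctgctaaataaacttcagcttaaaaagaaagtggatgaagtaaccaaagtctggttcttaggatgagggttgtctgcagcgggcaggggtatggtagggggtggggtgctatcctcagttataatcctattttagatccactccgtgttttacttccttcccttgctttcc

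In these 4 windows the matches were 2 RBPJ motifs in Lamb1, from 239 to 234 and from 201 to 196 bases before the start. The TCF/LEF and RUNX letters were not found in these windows, and Itga9, Itga5 and Lamb2 held none of the motifs searched. Over all 70 member windows, 8 (11.4%) held a TCF/LEF match, against 7.48% of all 32851 windows of that length. These 8 belonged to Itga1, Itga10, Itgb1bp1, Col6a2, Col9a1, Col9a2, Col13a1 and Col15a1, none of which differed by 2-fold in any comparison. RUNX matches were in 5 member windows (7.14%, against 14.0% of all) and RBPJ matches in 19 (27.1%, against 21.6%). A match is a description of letters and does not show binding.

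The collagens differed by small amounts in a uniform direction. None of the 44 was beyond 2-fold in either comparison. Without TCF-1, 28 were higher than in wild type by any amount, 16 were identical and 0 were lower, with differences from 0 to 0.55 and a median of 0.10. On the transgenic array 22 were higher, 22 identical and 0 lower, with differences up to 0.32. In all 44 the wild type value was the lowest or tied, and the TCF-1-deficient value was the highest or tied. The direction depends on the scaling. After an intensity trend was removed by loess, 26 collagens were higher and 18 lower without TCF-1, with a median of 0.07, and 25 were higher and 19 lower with the transgene. The lowest of these loess differences were small, -0.07 without TCF-1 and -0.02 with the transgene. Loess left 0 collagens identical, so its counts include genes that were identical before it. Among those counted as lower without TCF-1 were Col3a1 (-0.04) and Col6a1 (-0.05), both identical on the deposited scale. With arrays centred on their medians, all 44 were higher in both comparisons, with medians of 0.24 without TCF-1 and 0.09 with the transgene. Centring adds 1 constant to every difference, 0.13 without TCF-1 and 0.08 with the transgene. As no collagen was lower before it, that count was fixed in advance and includes the genes that were identical.

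Dim genes at large were also more often higher than lower without TCF-1, and brighter genes were not. Of the 9595 named genes that did not reach the median level, 38.3% were higher, 56.0% identical and 5.71% lower without TCF-1 than in wild type. Of the 9128 named genes with a mean level in the range of the collagens (5.38 to 7.99), 44.8% were higher and 14.9% lower, against 63.6% and 0% of the collagens. The order from wild type through transgenic to TCF-1-deficient, ties included, was seen in 77.5% of those genes and in 89.4% of the genes below the median level. The median level was reached by 22 of the 44 collagens. Of the 10343 named genes that reached it, 36.9% were higher and 44.9% lower without TCF-1.

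**Figure D4:**
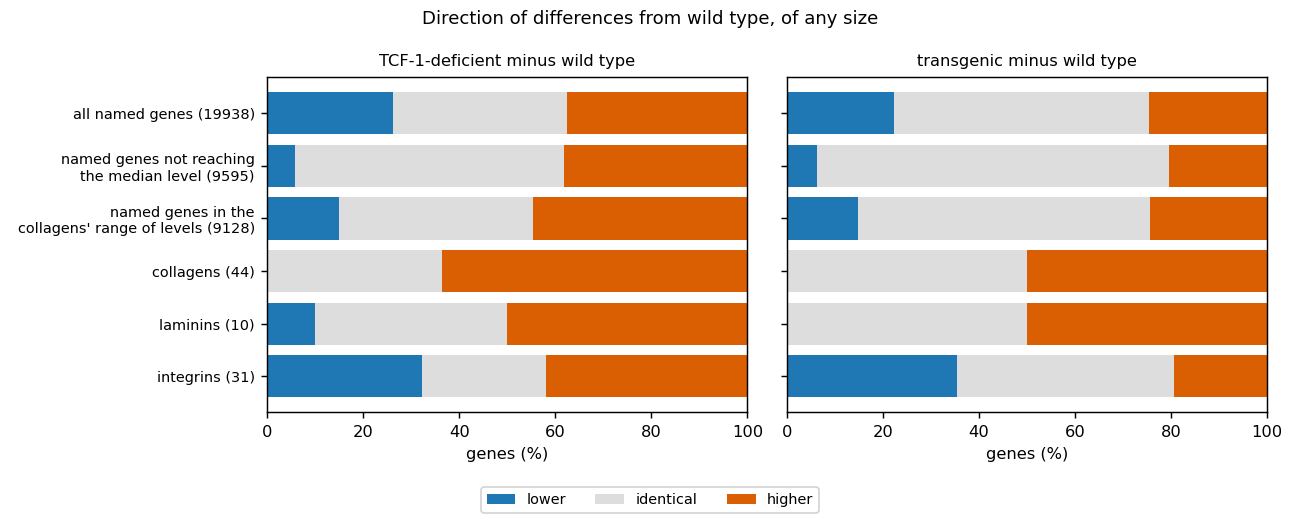
Share of genes (%) that were lower, identical or higher, by any amount, in TCF-1-deficient (left) and transgenic thymocytes (right) than in wild type, for all named genes, 2 sets of named genes chosen by level, and the collagens, laminins and integrins, with the number of genes in brackets. The collagens have no lower genes, and the named genes below the median level have few (5.71% and 6.19%).

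Among the fibrillar collagens, Col1a1 was at 7.39 in wild type, 7.45 in transgenic and 7.61 in TCF-1-deficient thymocytes. Col1a2, the other chain of type I collagen, was at 7.28, 7.30 and 7.71, a difference of 0.43 without TCF-1. Col3a1 was at 6.96 and identical on all arrays. Of the type V chains, Col5a1 was at 7.08, 7.22 and 7.42, and Col5a3 at 6.75, 6.97 and 7.02. The cartilage collagen Col2a1 was at 7.34, 7.51 and 7.63, and its relatives Col11a2 and Col27a1 differed by 0.20 and 0.29 without TCF-1. Each of these lay in the same order across the arrays or was tied.

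Among the basement membrane collagens, the X-linked gene Col4a5 had the largest difference of any collagen. It was at 6.28, 6.60 and 6.83, that is 0.32 higher with the transgene and 0.55 higher without TCF-1, and it did not reach the median level. Its neighbour Col4a6 was identical on the arrays. Col4a1 and Col4a2, chains of the ubiquitous type IV trimer that also neighbour each other, differed without TCF-1 by 0 and 0.25. Col18a1, the source of endostatin, was at 6.94, 7.16 and 7.16, and Col15a1 was identical at 7.23.

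The other collagens that reached the median level were also close to wild type. Without TCF-1 the differences were 0.21 in Col13a1, 0.11 in Col20a1, 0.18 in Col22a1, 0.22 in Col25a1, 0.19 in Col26a1, 0.13 in Col6a2, 0.16 in Col7a1 and 0.08 in Col9a3. Col6a1, Col6a6 and Col9a2 were identical on all arrays.

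Markers of the cells that make matrix, and of neutrophils, were examined beside these values. All 8 thymic epithelial markers, among them Foxn1, Krt5 and Epcam, stayed below the median level, with summed levels of 48.9, 49.2 and 49.4 in wild type, transgenic and TCF-1-deficient thymocytes. Of 8 fibroblast markers 1, Pdgfrb, was higher without TCF-1 by at least 2-fold (7.15 against 11.62), and the summed level of the 8 was 52.6, 52.5 and 57.0. Without TCF-1, Dpt and Pdpn were each above wild type by 0.22 and Mfap5 by 0.08, Pdgfra was within 0.01, and Dcn and Lum were identical. The eighth gene, Thy1, is also on the thymocyte list (13.18, 13.25 and 12.57). Of 7 endothelial markers none was beyond 2-fold, with summed levels of 43.8, 43.7 and 43.7. Neutrophil markers had summed levels of 30.8, 30.5 and 32.9 over 5 genes, none beyond 2-fold from wild type. Without TCF-1 all 5 were above wild type, by 0.16 to 0.88, with Ngp (0.88) and Ltf (0.56) the furthest. Ngp was beyond 2-fold between the mutants, with a transgenic minus TCF-1-deficient difference of -1.28. The part of these cells in the laminin values was not tested.

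Among genes listed for collagen and laminin processing, Papss2 and Plod2 differed more without TCF-1 than any collagen or laminin chain. Of 25 measured genes of collagen and laminin processing, the 2-fold rule called 2 lower and 0 higher without TCF-1, and 1 higher and 0 lower with the transgene. The shares over all named genes were 2.62% lower and 1.33% higher without TCF-1, and 0.15% higher and 0.0953% lower with the transgene. Plod2, a lysyl hydroxylase for collagen crosslinks, was at 7.17 in wild type, 8.15 in transgenic and 4.86 in TCF-1-deficient thymocytes. Its differences from wild type were 0.98 with the transgene and -2.31 without TCF-1, and the first passes the rule after centring (1.06) or loess (1.02). Papss2, which makes the sulfate donor used for proteoglycans, was at 9.66, 10.96 and 6.77. It was beyond 2-fold in both comparisons, with differences of 1.29 and -2.89, and so met the pattern the study looked for. Both had the order seen in Lamc1, with the transgenic array highest and the TCF-1-deficient array lowest. The median difference over the list was 0 in both comparisons with wild type. This list was drawn up with earlier results for Papss2 known. Papss2 supplied 1 of the 2 lower calls and the 1 higher call, so the counts of the list were partly fixed in advance.

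Of 28 other matrix proteins, Smoc1, a SPARC-related protein, was beyond 2-fold in both comparisons, in the order seen in Lamc1 (9.23, 10.34 and 6.51 in wild type, transgenic and TCF-1-deficient thymocytes). It too was a known result when the list was made. Agrn, the heparan sulfate proteoglycan agrin, was higher without TCF-1 (6.48, 6.54 and 7.53). The other 26 were within 2-fold in both comparisons, 9 of the 28 reached the median level, and the median difference was 0.12 without TCF-1. Among all named genes, 1.33% were higher and 2.62% lower without TCF-1, and 0.15% were higher with the transgene.

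Of 26 ligands of integrins and non-integrin matrix receptors, 2 were higher and 2 lower without TCF-1, and 1 was higher with the transgene. By the same rule, 1.33% of all named genes were higher and 2.62% lower in TCF-1-deficient thymocytes than in wild type. In transgenic thymocytes 0.15% were higher. Sdc1, the heparan sulfate receptor syndecan-1, was at 6.22, 6.38 and 8.32, and Ddr1, a collagen-binding receptor kinase, was at 6.89, 7.56 and 8.13. Icam2, a ligand of LFA-1, was lower (9.37, 8.98 and 8.36), as was Cd47, which associates with β3 integrins (12.07, 11.88 and 11.05). Both sit at the threshold and fell inside it after centring on array medians (-0.88 for Icam2 and -0.89 for Cd47). Cd44, the hyaluronan receptor, was higher with the transgene by 1.68 and lower without TCF-1 by a difference of -0.91. Vcam1 and Icam1, ligands on other thymic cells, were within 2-fold.

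The intracellular partners of integrins were mostly above the median level, 28 of 36 measured. Without TCF-1 the 2-fold rule called 2 lower and 0 higher, with a median of -0.21 over the list, and with the transgene 0 were beyond 2-fold. Over all named genes, 2.62% were lower and 1.33% higher by that rule without TCF-1. Brighter genes at large leaned the same way: of named genes reaching the median level, 44.9% were lower and 36.9% higher by any amount. The part of that lean in the median of the list was not tested. The lower genes were Apbb1ip (RIAM), which links Rap1 to talin (11.44, 11.17 and 10.31), and Lims1 (PINCH-1), a partner of integrin-linked kinase (10.94, 11.03 and 9.92). After centring or loess neither reached the threshold, with a Lims1 difference of -0.89 in both and an Apbb1ip difference just short of the threshold. Talin 1 (Tln1) was at 10.77, 10.78 and 10.44, and kindlin-3 (Fermt3), the leukocyte kindlin, was at 10.40, 10.34 and 10.04.

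Of 28 matrix proteinases and inhibitors, 2 were higher and 1 was lower without TCF-1, and 0 were beyond 2-fold with the transgene. The same rule called 1.33% of all named genes higher and 2.62% lower without TCF-1. Adam19, a membrane proteinase, was at 7.37, 7.19 and 10.02, a difference of 2.65. Adam12, its relative, was at 8.48, 8.33 and 7.06. Timp3, a matrix-bound inhibitor of metalloproteinases, was at 5.90, 5.80 and 7.04. The gelatinase Mmp2 and the membrane proteinase Mmp14 differed from wild type without TCF-1 by 0.09 and 0.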

How the data were processed

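The authors' deposited table gives 1 log2 value per probe set and array; the submitters' processing notes name RMA and Partek, with no versions. The log2 scale was inferred from RMA and from the range of the values (1.73 to 14.8). Settings, background correction and build: not given in the sources used here. Probe sets were named from the platform annotation: 21789 had 1 symbol, 1621 had several and were left out, and 12146 are unnamed here. All 89 members matched RefSeq by Entrez identifier. The deposited normalization was kept. Differences, counts at 2-fold and medians were computed with Python 3.11.15, NumPy 2.4.6, pandas 2.3.3 and statsmodels 0.14.6, with figures by matplotlib 3.10.9, and the size rule was checked on simulated data. No test was possible with 1 array per genotype. The members and gene lists were chosen with earlier results of these data known. Named were integrin chains and matrix genes that reached the median level on any array, members beyond 2-fold in any comparison, and a short fixed list; other genes were chosen after their values were seen. Alternatives were folds of 1.5 and 3, a filter on dim genes, centring, loess (span 0.3) and other probe set rules. Added after seeing the data were counts without the 4 symbols that are no integrin chain and without genes of chromosomes X and Y. The gene targeted in the TCF-1-/- mice was not analysed here, so their label was not checked. Columns of other samples numbered 0.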

Additional observations from a re-analysis of the deposited data

How the results depend on the processing

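No paired analysis was possible because each genotype has 1 array and the labels give no replicate numbers. At 1.5-fold, 2 integrins (Itgae and Itgam) and 2 matrix genes (Fn1 and Lamc1) were beyond the rule on the transgenic array against wild type, where 97 of all named genes were higher and 133 lower. At 3-fold, 0 matrix genes were beyond it on the TCF-1-deficient and 0 on the transgenic array, and 1 (Lamc1) was between the mutants. Of all named genes, 107 were higher and 175 lower at 3-fold without TCF-1, and 11 were higher and 7 lower with the transgene. Between the mutants, 177 were higher and 118 lower on the transgenic array. At that fold 0 members met the opposed pattern of lower without TCF-1 but higher in transgenic thymocytes. With arrays centred on their medians, 1 integrin (Itgam) and 2 matrix genes (Fn1 and Lamc1) were beyond 2-fold on the transgenic array, and 0 members met that pattern, because centring adds 0.13 to each TCF-1-deficient difference. After centring, 37 of all named genes were higher and 16 lower on the transgenic array than in wild type. With loess, 1 matrix gene (Lamc1) was beyond 2-fold between the mutants, where 432 of all named genes were higher and 350 lower. The other counts were within 1.5 times the main ones under every alternative run. Of 661 recomputed differences of named genes, 660 moved by less than 0.25, 1 (Itgad, with probe sets averaged) moved more, and 0 called differences changed sign. Few of these could have moved that far, so the tally bears mainly on loess. Filters leave a value as it is, 3 members have several probe sets, and centring adds a constant smaller than 0.25. Signal over background was not given, so dim genes are the least certain.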
